A study of Oryza sativa Japonica Group with 6 samples.

Results

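Glutelins, storage proteins of the rice grain, are made on the endoplasmic reticulum. They are carried through the Golgi to the protein storage vacuole, where they are cut into their mature form. Here 9 genes of that route were described: the vacuolar processing enzyme gene VPE1 (also GLUP3), the endosomal GTPase gene Rab5a (GLUP4), its partners VPS9a (GPA2), GPA3 and GPA5, and the GTPase genes Sar1a, Sar1b, Sar1c and Sar1d. They were taken by gene ID, 9 of the 93655 features of the table, for their known place in the route. The symbols of VPE1, Rab5a, VPS9a and GPA3 were found in a RefSeq gene table on the chromosome that the ID gives. Those of GPA5 and the Sar1 genes are not in that table and rest on the ID alone.

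RNA was sequenced from endosperm, the storage tissue of the grain, of Oryza sativa Japonica Group 7 days after pollination. The wild type (WT, 3 libraries) is named in the series title as ZH11, and the other 3 libraries carry the label nf-yc11 mutant, after an NF-YC protein, part of the CCAAT-binding complex NF-Y. The labels give neither the allele, the number of mutant lines, nor whether replicates came from separate plants, so p-values speak of the variation among 3 libraries a group, possibly all of it technical. The question set by the design text was how mRNA levels of the mutant stood against WT.

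Proteins leave the endoplasmic reticulum in COPII-coated vesicles, and Sar1 is the small GTPase that starts their coat. From the Golgi, dense vesicles take glutelin precursors to the vacuole, and this step depends on Rab5a, on VPS9a, its guanine nucleotide exchange factor, on GPA3, a kelch-repeat protein that works with both, and on GPA5, an effector of Rab5a. In rice, loss of Rab5a, VPS9a, GPA3 or GPA5 leads to misplaced glutelin and floury grain. Inside the vacuole VPE1, a cysteine protease, cuts proglutelin into its acidic and basic subunits.

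Values are FPKM, reads scaled by the length of the gene and by the read total of the library. The totals behind them were 14593215 to 21984785 reads. The feature that general knowledge pairs with NF-YC11, OS05G0304800, which the gene table does not name, stood at 126 ± 3.07 FPKM (SD, n = 3, here and below) in WT and 110 ± 3.35 FPKM in the libraries labelled nf-yc11 (log2 change −0.20, adjusted p = 0.0037, limma), so the transcript was present in both groups. The ID paired with NF-YC12, also without a name in the gene table, was 3.93-fold lower (755 and 192 FPKM), and NF-YB1 was 1.83-fold lower (439 and 240 FPKM). The labels give no locus, so which NF-YC gene is altered cannot be told from these levels. Of the endosperm markers, GBSSI (1063 and 608 FPKM in WT and nf-yc11) and the dikinase gene FLO4 (3429 and 2146 FPKM) fell, whereas the ID listed as BEIIb (1619 and 2132 FPKM) rose. Of 5 embryo and aleurone markers, RAB21 (252 and 227 FPKM) and LEA3 (115 and 104 FPKM) fell, and the ID listed as OLE16 rose (2025 and 2583 FPKM). OLE18 did not pass, and OSH1, an embryo shoot gene, was near 1 FPKM. The 5 summed to 4514 to 4862 FPKM in WT and 5158 to 5556 FPKM in nf-yc11, and without OLE16, which like BEIIb is not in the gene table, to 2504 to 2826 and 2702 to 2868 FPKM. Of the pericarp markers, CAB1R fell 1.61-fold (438 and 272 FPKM) and CAB2R did not pass (1107 and 1143 FPKM), and their sum was 1538 to 1555 FPKM in WT and 1356 to 1497 FPKM in nf-yc11. Markers of seed tissue besides starchy endosperm were thus present in both groups, and their part in the results below was not tested. In bulk tissue, fewer cells of a type and less RNA per cell cannot be told apart.

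The clearest difference was in the Rab5a step: Rab5a mRNA was 3.59-fold lower in the libraries labelled nf-yc11, whereas VPS9a and GPA3 did not pass the test. At the endoplasmic reticulum exit, Sar1a and Sar1b rose, by 1.28-fold and 1.45-fold, and Sar1c did not pass. VPE1, the most abundant of the 9, was 1.06-fold lower, a difference whose call depended on the scaling between libraries and on the model. GPA5 and Sar1d were barely detected in either group.

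A gene was called higher or lower at an adjusted p under 0.05 in limma on log2(FPKM + 1), fitted over the 22093 features that averaged 1 FPKM or more. Of the 9 genes 7 passed that filter, of which 2 were called higher and 1 lower. Calls were common in the series: 49.1% of tested features passed, 29.8% higher and 19.3% lower, and the 3 of 7 called here lie near that share. Under median-of-ratios size factors 25% were higher and 23.6% lower. TMM scaling gave 24.5% and 24%, quantile normalization 24.5% and 23.9%, and leaving the 100 most abundant features out of the total 25.8% and 22.7%.

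**Figure D1:**
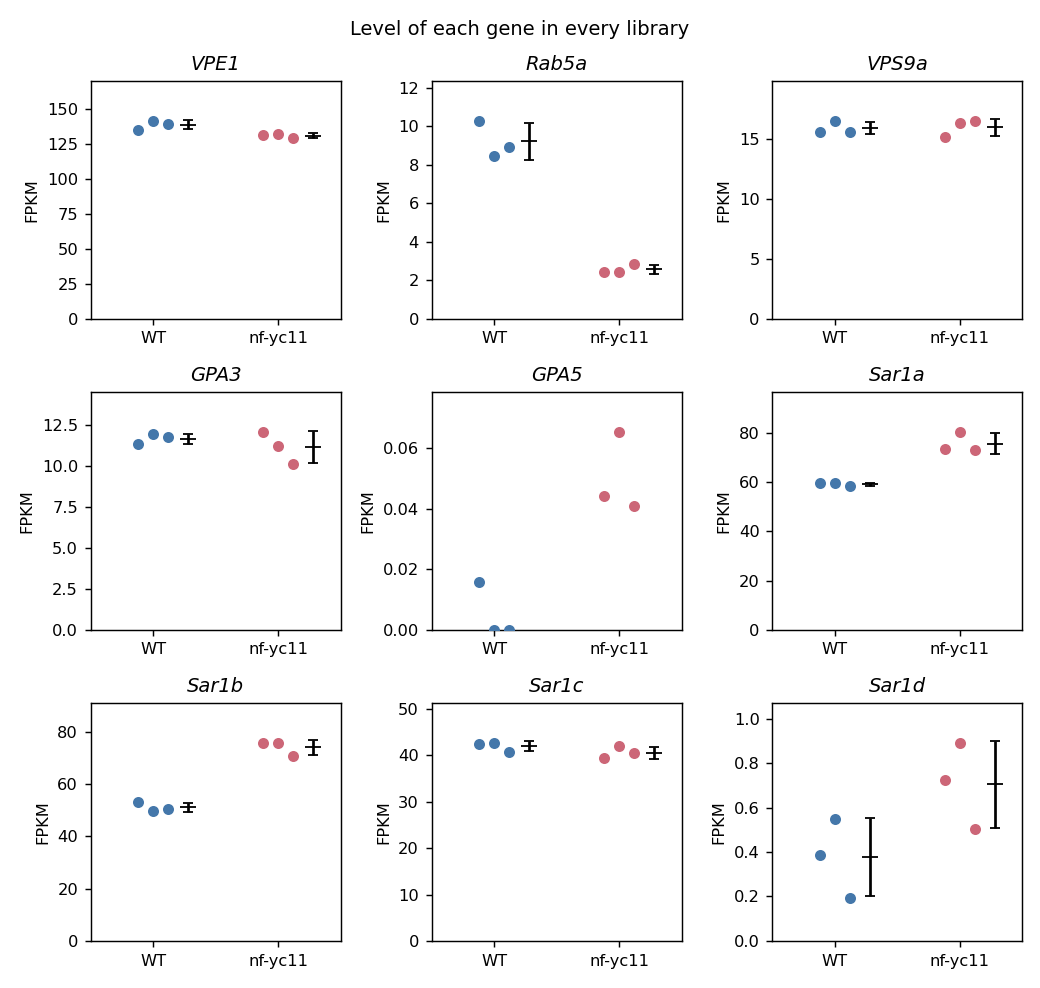
FPKM of the 9 genes in each library, with WT points in blue and nf-yc11 points in red, and the mean ± SD of 3 libraries as black bars (left out for GPA5, which has at most 3 reads per library). Every axis starts at 0. Rab5a lies between 8.45 and 10.3 FPKM in WT and between 2.42 and 2.84 FPKM in nf-yc11, and Sar1a and Sar1b lie higher in all nf-yc11 libraries than in any WT library.

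Rab5a (OS12G0631100) is the GTPase that marks the endosomal compartment through which glutelin precursors pass. Its values were 10.3, 8.45 and 8.91 FPKM in WT replicates 1 to 3 and 2.45, 2.42 and 2.84 FPKM in nf-yc11 replicates 1 to 3. All nf-yc11 libraries were lower than every WT library, and the gap between the groups was wider than the spread within either. Groups without overlap were common, at 59.7% of all tested features. Means were 9.22 ± 0.960 and 2.57 ± 0.233 FPKM (adjusted p = 4.63e-05, limma, log2 change −1.52 ± 0.09 SE, 95% interval −1.74 to −1.29). The log2(FPKM + 1) scale understates the change of so low a gene, which is why its log2 change is smaller than the ratio of means.

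The reads behind these values numbered 235, 137 and 135 in the WT libraries and 40, 40 and 50 in the nf-yc11 libraries, on a feature of 1038 bases. Relative to the library totals, the 507 WT and 130 nf-yc11 reads gave a rate 3.64 times as high in WT, with an exact 95% interval of 2.99 to 4.45 that covers counting error only. Only 0.969% of tested features fell as far as Rab5a or farther on the log2 scale. Its spread between libraries was near that of counting, with an SD of 0.960 FPKM in WT, where counting alone would give 0.726 FPKM, and of 0.233 FPKM in nf-yc11 against 0.391 FPKM. The tested features next to Rab5a by gene ID went opposite ways: OS12G0630700 rose from 10.8 ± 1.27 to 17.2 ± 0.501 FPKM, and OS12G0631200 fell from 21.6 ± 0.781 to 17.4 ± 1.02 FPKM (adjusted p = 0.000954 and 0.00527, limma). Both were chosen after the values were seen, and neither moved as far as Rab5a.

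VPS9a (OS03G0262900) loads GTP onto Rab5 and so switches it on. It stood at 15.7, 16.6 and 15.6 FPKM in WT and 15.2, 16.4 and 16.5 FPKM in nf-yc11. The groups overlapped, and the change of 0.00 ± 0.05 on the log2 scale (95% interval −0.12 to 0.13, adjusted p = 0.958, limma) had no stable sign between scalings.

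GPA3 (OS03G0835800), the kelch-repeat partner of Rab5a and VPS9a, was at 11.3, 11.9 and 11.7 FPKM in WT and 12.1, 11.2 and 10.1 FPKM in nf-yc11. The nf-yc11 libraries spanned the WT range on both sides and were more spread, with an SD of 0.987 against 0.306 FPKM. Its log2 change of −0.06 ± 0.07 did not pass (95% interval −0.23 to 0.10, adjusted p = 0.484, limma).

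Ratios within a library do not depend on a scaling that multiplies each library by 1 factor. The level of Rab5a relative to that of VPS9a was 0.658, 0.510 and 0.570 in WT and 0.162, 0.148 and 0.172 in nf-yc11. Against GPA3 it was 0.909, 0.709 and 0.759 in WT and 0.203, 0.216 and 0.280 in nf-yc11. The groups were apart in both ratios. Each had p = 0.1, the smallest p that an exact two-sided permutation test of 3 against 3 libraries can give. After Benjamini-Hochberg adjustment over the 6 ratios compared among these genes, each was 0.12. These ratios were chosen after the values were seen. They restate the fall of Rab5a against genes that did not pass, and are not a further test of it. The ratio of VPS9a to GPA3 was 1.37 ± 0.0308 in WT and 1.45 ± 0.189 in nf-yc11, and overlapped (exact p = 0.6).

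GPA5 (OS06G0643000), the Rab5a effector, had 1, 0 and 0 reads in the WT libraries and 2, 3 and 2 in the nf-yc11 libraries on a feature of 2878 bases. These equal 0.0158 FPKM in WT replicate 1 and 0.0409 to 0.0653 FPKM in nf-yc11. All libraries lay at or under the level of 3 reads, 0.0474 to 0.0714 FPKM on this feature. The rate ratio of nf-yc11 to WT was 7.50 with an exact 95% interval of 0.964 to 338, counting error only. A difference was not detectable at this depth, and whether this ID carries all the transcripts of GPA5 was not tested. The tested features next to it by ID were at 146 and 66.2 FPKM in WT and 148 and 64.3 FPKM in nf-yc11, so reads were counted on both sides of it.

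**Figure D2:**
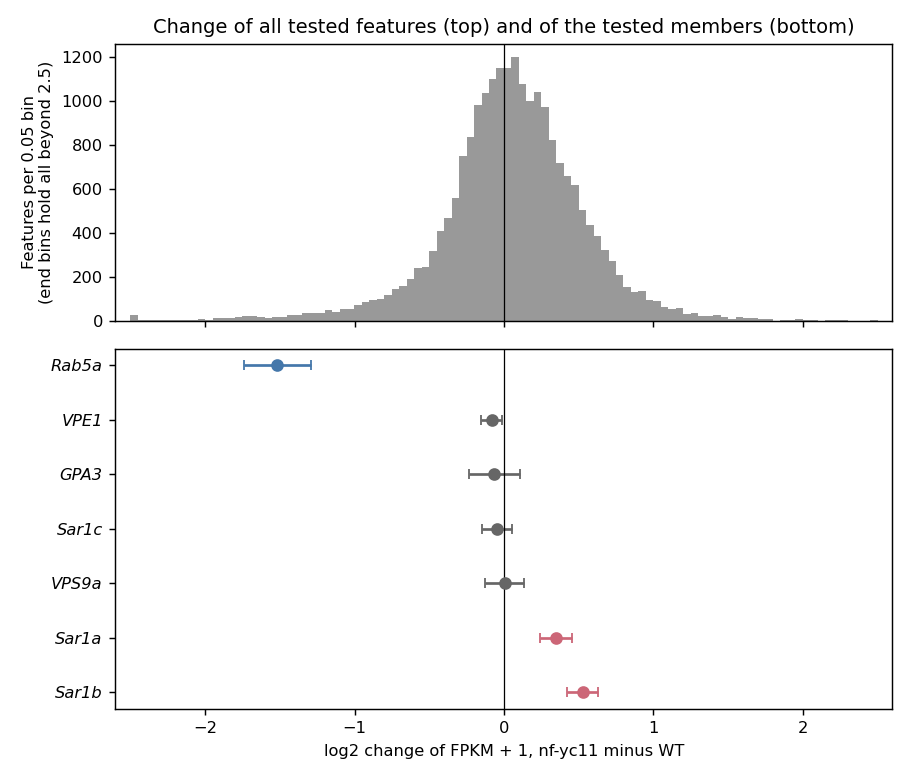
Upper panel, number of the 22093 tested features per bin of log2 change (nf-yc11 minus WT, on FPKM + 1), with changes beyond 2.5 gathered in the end bins. Lower panel, log2 change of the 7 tested genes with 95% intervals from limma, blue for lower, red for higher and grey for not called. Rab5a, at −1.52, lies in the left tail, Sar1a (0.35) and Sar1b (0.53) lie within the right shoulder, and the other 4 lie within 0.09 of 0.

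The Sar1 genes are close paralogs, and reads that match more than one of them may have been assigned in a way that favours a single copy. Sar1a (OS01G0254000) was at 59.6, 59.5 and 58.5 FPKM in WT and at 73.5, 80.6 and 73.3 FPKM in nf-yc11. The groups did not overlap. With means of 59.2 ± 0.654 and 75.8 ± 4.14 FPKM, Sar1a rose 1.28-fold (adjusted p = 0.000901, limma, log2 change 0.35 ± 0.04). On the log2 scale, 23.5% of tested features rose as far or farther.

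Sar1b (OS12G0560300) was at 53.1, 49.7 and 50.5 FPKM in WT and at 75.8, 75.7 and 70.9 FPKM in nf-yc11. Again every nf-yc11 library was above every WT library. Means were 51.1 ± 1.76 and 74.1 ± 2.80 FPKM, a rise of 1.45-fold (adjusted p = 0.000139, limma, log2 change 0.53 ± 0.04), and 13.2% of tested features rose as far or farther.

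Sar1c (OS01G0338000) did not pass. It was at 42.5, 42.7 and 40.7 FPKM in WT and 39.4, 41.9 and 40.4 FPKM in nf-yc11, groups that overlapped. Its log2 change was −0.05 ± 0.04 (95% interval −0.15 to 0.05, adjusted p = 0.376, limma), and it was called lower under quantile normalization (log2 change −0.15, adjusted p = 0.0241).

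Sar1d (OS06G0225000) contributed little, with 6, 6 and 2 reads in WT and 8, 10 and 6 reads in nf-yc11, or 0.195 to 0.547 and 0.502 to 0.892 FPKM. The groups overlapped, and the rate ratio of 1.84 had an exact 95% interval of 0.913 to 3.84, counting error only. A difference was not detectable at this depth.

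The 4 Sar1 genes together held 156, 152 and 149.8 FPKM in WT and 189, 199 and 185 FPKM in nf-yc11. Their sum was thus 1.25-fold higher, 153 ± 2.94 against 191 ± 7.16 FPKM, with no overlap (exact two-sided permutation p = 0.1, the smallest possible). The shares of the 4 genes in this sum restate the levels above, as a share falls where the other genes rise. Sar1b gave 33.5% ± 0.773 of it in WT and 38.8% ± 1.09 in nf-yc11. Sar1c, whose own level did not pass, gave 27.5% ± 0.444 and 21.2% ± 0.548. Neither share overlapped between groups (exact p = 0.1 each). The share of Sar1a, 38.8% ± 0.415 and 39.6% ± 0.830, overlapped (exact p = 0.3).

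Set against Sar1c in the same library, Sar1a was at 1.40, 1.39 and 1.44 in WT and 1.87, 1.92 and 1.81 in nf-yc11, and Sar1b at 1.25, 1.16 and 1.24 in WT and 1.93, 1.80 and 1.75 in nf-yc11. The ratio of Sar1b to Sar1a also moved, from 0.863 ± 0.0274 to 0.979 ± 0.0471. None of these 3 ratios overlapped between groups (exact p = 0.1 each). Adjusted over the 6 ratios, each was 0.12, and scaling each library by 1 factor does not alter them. They too were chosen after the values were seen. The tested features next to Sar1a by ID were both lower in nf-yc11, those next to Sar1b did not pass, and of the 18 such neighbours of the 9 genes, 5 were higher, 4 lower and 9 not called.

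**Figure D3:**
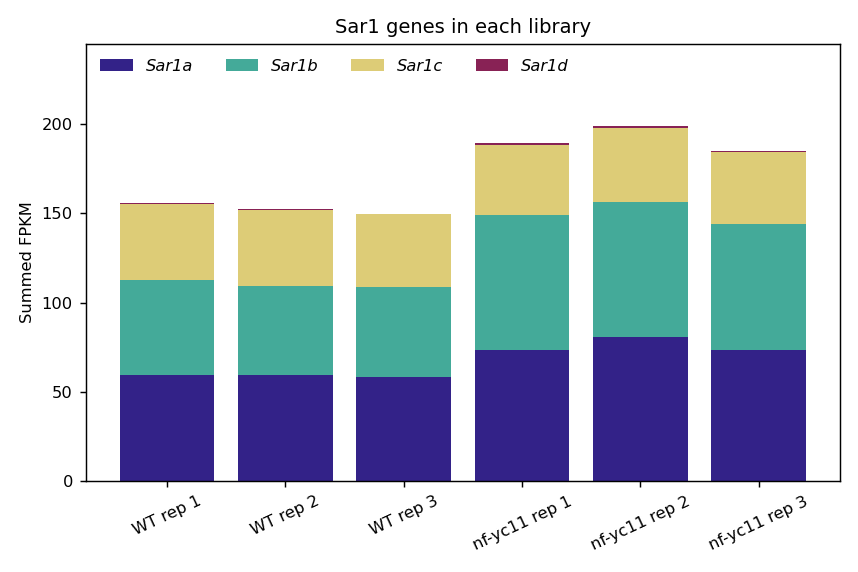
FPKM of the 4 Sar1 genes stacked for each library, from 0. The columns reach 149.8 to 156 FPKM in WT and 185 to 199 FPKM in nf-yc11. The Sar1a and Sar1b segments are taller in nf-yc11, the Sar1c segment spans 39.4 to 42.7 FPKM, and Sar1d is a thin line at the top.

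VPE1 (OS04G0537900) was at 135.3, 142 and 139.7 FPKM in WT and at 132, 132 and 129 FPKM in nf-yc11, on 3783 to 5521 reads per library. The groups did not overlap, but the gap between them was narrower than the range of the WT libraries. The mean was 139 ± 3.33 FPKM in WT and 131 ± 1.60 FPKM in nf-yc11, a log2 change of −0.08 ± 0.03 that did not pass (adjusted p = 0.0593, limma). It passed with size factors (−0.15, adjusted p = 0.0069), TMM factors (−0.16, adjusted p = 0.00484) and quantile normalization (−0.22, adjusted p = 0.00135), and in voom on recovered reads (−0.08, adjusted p = 0.0421). The 3 scalings moved the median of all features by −0.06, while the change of VPE1 moved by about as much with size factors and TMM factors and by more with quantile normalization. It stood among the highest 3.51% of tested features in WT.

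Glutelins are the cargo of this route and the substrate of VPE1. The 7 glutelin genes found in the gene table were all called lower (adjusted p under 0.05, limma), as were 19.3% of all tested features. Falls ran from 1.16-fold (GluA2) to 2.36-fold (GluD1), and 23.1% of tested features fell as far as GluA2 or farther. The sum of the 7 went from 60432 ± 660 FPKM in WT to 46058 ± 242 FPKM in nf-yc11. Per unit of VPE1 level, the summed glutelin level was 441, 428 and 436 in WT and 348, 348 and 358 in nf-yc11 (exact p = 0.1, the smallest possible). Near-identical copies of glutelin genes may share reads, which bears less on the sum than on single members.

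Ranked by mean level in WT, the order was VPE1, Sar1a, Sar1b, Sar1c, VPS9a, GPA3, Rab5a, Sar1d and GPA5, and no neighbours in it overlapped between libraries. VPE1 was 2.35 times as high as Sar1a, and GPA3 1.26 times as high as Rab5a. In nf-yc11 the order of means was the same, but Sar1a and Sar1b now overlapped (75.8 and 74.1 FPKM) and GPA3 stood 4.34 times as high as Rab5a. By Pearson r of log2(FPKM + 1) over the 6 libraries, Sar1b was most like Sar1a (r = 0.973) and Rab5a most like VPE1 (r = 0.816). With 2 groups of libraries such values mostly restate the group difference.

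**Figure D4:**
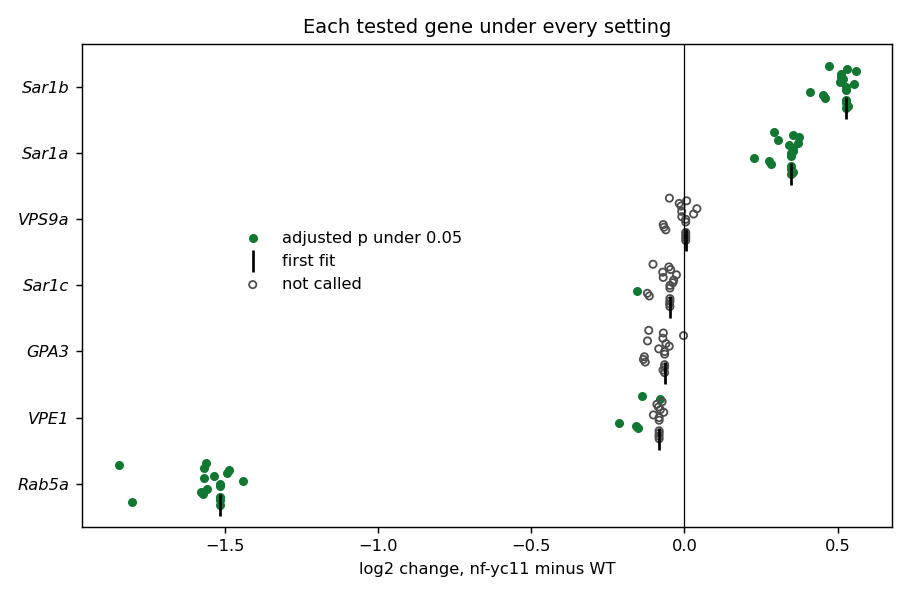
Log2 change (nf-yc11 minus WT) of the 7 tested genes in the first fit (black bar) and under 16 alternative settings of scaling, filter, pseudocount and libraries, filled green where the adjusted p was under 0.05. Rab5a, Sar1a and Sar1b are filled throughout, VPE1 is filled in 5 of the 16, Sar1c in 1, and VPS9a lies on both sides of 0.

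Of 9 further genes listed for storage protein transport, vacuole membrane and processing, 2 were higher, 3 lower and 4 not called, a share of calls near the 49.1% of all tested features, with a median log2 change of −0.11 against 0.06 over all tested features. Only the vacuolar aquaporin genes TIP3-1 and TIP3-2, markers of the protein storage vacuole membrane, were found in the gene table. TIP3-2 fell (adjusted p = 0.0172, limma, log2 change −0.36 ± 0.09), with means of 5.45 ± 0.541 and 4.01 ± 0.354 FPKM. This call ended without WT replicate 1 (0.0592) or 2 (0.0555) and without nf-yc11 replicate 1 (0.0524) or 2 (0.0509). TIP3-1 was at 13.2, 10.7 and 13.7 FPKM in WT and at 14.2, 21.2 and 14.4 FPKM in nf-yc11, and did not pass (log2 change 0.36 ± 0.16, adjusted p = 0.108, limma). Among the 7 IDs without a name in the table, the largest fall on the log2 scale was that of OS02G0523500, from 564 ± 4.49 to 445 ± 8.89 FPKM, and the largest rise on that scale that of OS03G0209400, from 17.0 ± 0.804 to 20.6 ± 1.47 FPKM.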

How the data were processed

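The data are FPKM values that the authors deposited as 1 table, whose 6 columns were matched to the labels by title. Per the submitters' processing notes, CASAVA 1.7, HISAT2 2.0.5 and DESeq were used, with no role given. Counting tool, genome build and annotation: not given in the sources used here, and coordinates are left out. Per the labels' protocols, RNA was extracted with TRIzol.

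Whole reads and feature lengths were recovered from the values for 36189 of 36189 features above 0, within 0.0001 of a whole number. The shortest length that gave whole reads was kept, so where reads and length share a factor, both come out too small. A feature with reads in few libraries can match by coincidence, so the full match is no check on such features. The search was tested on simulated data, as was the model, with outcomes not given here. The simulation of the model changed few features, unlike these data, so it does not speak to the effect of scaling. The model was limma 3.58.1 (R 4.3.3), with a variance trend and a pseudocount of 1 FPKM on the log2 scale, for the 22093 features averaging 1 FPKM or more, over which p-values were adjusted by Benjamini-Hochberg. Sums and ratios of members were compared by exact two-sided permutation tests in scipy 1.17.1, which cannot go below p = 0.1 here. The neighbours by ID and the 6 ratios were chosen after the values were seen.

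The members and lists were chosen with earlier results of these data known. All 9 members are named. Other genes are named where their symbol was found in RefSeq's gene table (assembly ASM3414082v1) on the ID's chromosome and in the order of the IDs. Exceptions are BEIIb, OLE16, NF-YC11 and NF-YC12, which are named without that check and marked so where they appear. This held for 4 members, 2 of 9 pathway genes, 7 of 8 glutelins and 8 of 10 markers. Alternatives were another pseudocount (0.1), other filters, size factors, TMM factors, quantile normalization, no variance trend, the replicate block, each library left out, and voom on the recovered reads. The total without the 100 most abundant features was added after seeing the data. No protein or promoter sequences were used here.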

Additional observations from a re-analysis of the deposited data

How the results depend on the processing

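Rab5a (log2 change −1.85 to −1.44), Sar1a (0.23 to 0.37) and Sar1b (0.41 to 0.56) kept their direction and call under all 16 alternatives, and 2 members were called higher in each. The count of members called lower was 1, and became 2 with size factors, TMM factors, voom or the total without the 100 most abundant features, by VPE1, and 3 with quantile normalization, by VPE1 and Sar1c. The log2 change of VPS9a turned negative with quantile normalization (−0.069), TMM factors (−0.067), size factors (−0.061) and the total without the 100 most abundant features (−0.049), and lay between −0.017 and 0.041 with single libraries omitted, with no call in any. GPA3 passed under no alternative, and Sar1c only under quantile normalization. Without the filter on low values, GPA5 (adjusted p = 0.272, limma) and Sar1d (0.143) did not pass.

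Of the 9 pathway genes, 2 were called higher and 3 lower at first. These became 1 and 5 in each of the 4 other scalings, 3 and 4 in voom, and 1 and 2 without the variance trend. With the filter at 5 FPKM, 8 were tested, of which 2 were higher and 2 lower. When 1 library was left out, 1 to 2 were called in each direction. The cause of these moves was not tested.

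Same-numbered libraries showed no shared deviation (r = −0.05, 0.004 and −0.048). These values cannot tell whether such libraries were grown or prepared together, which the labels do not give. With the replicate block, 1 pathway gene was lower and the call of TIP3-2 ended (adjusted p = 0.0512, limma), while the members' calls did not change. The summed Sar1 level was 38.5 FPKM higher in nf-yc11, and 34.6 to 41.6 FPKM higher when 1 library was left out. The rise was 30.3 FPKM with size factors, 29.6 FPKM with TMM factors and 31.8 FPKM with the total without the 100 most abundant features. The count of changed features, 10842 of 22093, ranged from 8320 to 11694 over all alternatives. The number tested differed with the filter, and the 8320 were of 13548 features averaging 5 FPKM or more. The share of VPE1 in its gene family was not run, because no other member was found in the gene table. At these depths the filter of 1 FPKM leaves GPA5 and Sar1d untested, and their reads limit any statement about them.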
